A study of Mus musculus with 8 samples.

Results

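Removal of EED, a core subunit of Polycomb repressive complex 2 (PRC2), was set against expression of EZHIP, a protein that inhibits the complex, in mouse embryonic fibroblasts (MEFs), which are cultured connective tissue cells. The comparison used 4 of the 8 libraries of the study, the EED-null and the EZHIP libraries, which were chosen by their labels. It covered all 875 genes of the deposited table. RNA was sequenced after removal of ribosomal RNA in 4 groups of MEFs with 2 libraries each. The control group was the parental line, which carries *EED* alleles flanked by loxP sites. EZHIP cells were this line with a lentiviral transgene for human EZHIP under the EF1a promoter, and a further group carried a transgene for histone H3.3 with the K27M mutation (K27M). EED-null cells came from the same line after a transient lentiviral Cre had deleted *EED*, and they are 1 selected clone. A feature of that clone and an effect of losing EED therefore cannot be told apart. The paper states that transduced cells were selected with puromycin. Against control, an effect of EZHIP therefore cannot be told apart from one of the vector or of that selection. In the comparison with EED-null cells, made with a transient vector, these cannot be told apart either.

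PRC2 places methyl groups on lysine 27 of histone H3. Its catalytic subunit is EZH2, while EED holds the complex together and reads the trimethylated mark, which helps the complex to spread it. The mark keeps genes of other lineages silent, above all those of developmental transcription factors, whose promoters are often CpG islands. EZHIP is a protein of placental mammals that is found in posterior fossa ependymoma, a childhood brain tumour. It binds the active site of EZH2 and inhibits it, as K27M histones do, whereas without EED the complex loses its methyltransferase activity.

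The deposited value of a gene is its estimated number of reads, divided by a size factor of the library. It is not scaled to the length of the gene, so levels are compared between libraries and not between genes. The table holds genes selected by the authors as different between EZHIP and control cells, and in it the means of these groups are at least 2-fold apart. Of these, 495 were higher in EZHIP cells by the group means (called raised here) and 380 were lower (called lowered). That direction was not tested here, but the classes described below are defined by it. The EED-null libraries had no part in choosing the genes. The choice does touch the comparison in 1 respect: because it used the EZHIP and control libraries themselves, it favours genes whose EED-null values lie on the control side of the EZHIP values, and it does not favour genes whose EED-null values lie beyond them. Genes outside the table were not analysed here. Neither *Eed* nor the human transgene is in the table, so the deletion and the expression of EZHIP were not checked.

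Each gene was tested with limma on log2(value + 1), a scale that understates changes of genes with few reads. Adjusted p-values are those of Benjamini and Hochberg, taken over all 875 genes. A gene was called at an adjusted p under 0.05 and a difference of at least 2-fold. Called genes were placed in 4 classes. "Further" means that EED-null lay beyond EZHIP, on the side away from control. In the other 3 classes EED-null lay on the control side of EZHIP: "partial" where it was still called against control in the direction of EZHIP, "EZHIP only" where it was not called against control, and "opposite" where it was called against control in the other direction. K27M cells have no part in these class names, and a gene not called against control can still differ from it. With 2 libraries a group, no exact permutation p can be under 0.333, and a call depends on the variance that limma estimates over groups and moderates over genes. The labels do not say that replicates were separate cultures, and the p-values then measure only the spread between these libraries.

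The libraries held between 209390 and 424561 estimated reads on the listed genes, with the EZHIP libraries at 264279 and 269660 and the EED-null libraries at 209390 and 294073. Replicates differed by a median of 0.17 in EZHIP cells and 0.15 in EED-null cells on the log2 scale. No library was set aside. Of the fibroblast markers checked, *Col3a1*, *Dcn* and *Fap* are in the table, all of them lowered genes. *Col3a1*, the type III collagen of fibroblasts, measured 17665 and 17245 in control libraries, 6797 and 6268 with EZHIP and 5733 and 5641 without EED, so it was well expressed in both lines, while *Fap* was near the limit of detection in EED-null cells, at 2.77 and 8.72.

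The promoters of 4 genes are printed as examples of genes that went further in EED-null cells and of raised genes of the EZHIP only class. They are the first named genes of these classes, by the size of the difference, that have 1 annotated locus. The CpG dinucleotides, the usual landmark of PRC2 target promoters, are in capitals. Each line gives the 250 bases before the annotated gene, from the mm9 genome and in the 5′ to 3′ direction of the gene, with its coordinates and strand. *Eomes* and *Cxcr4* went further in EED-null cells, and *Kcnj15* and *Saa3* were raised genes of the EZHIP only class.
Eomes chr9:118387080-118387329 (+): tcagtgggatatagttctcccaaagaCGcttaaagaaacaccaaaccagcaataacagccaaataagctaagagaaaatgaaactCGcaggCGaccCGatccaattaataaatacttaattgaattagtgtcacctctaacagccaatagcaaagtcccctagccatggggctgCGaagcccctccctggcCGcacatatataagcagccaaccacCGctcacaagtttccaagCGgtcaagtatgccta
Cxcr4 chr1:130488871-130489120 (-): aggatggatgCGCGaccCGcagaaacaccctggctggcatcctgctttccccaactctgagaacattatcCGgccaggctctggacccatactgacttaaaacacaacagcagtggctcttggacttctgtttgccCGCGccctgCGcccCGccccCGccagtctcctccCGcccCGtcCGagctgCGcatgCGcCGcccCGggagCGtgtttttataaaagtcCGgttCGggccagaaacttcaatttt
Kcnj15 chr16:95478915-95479164 (+): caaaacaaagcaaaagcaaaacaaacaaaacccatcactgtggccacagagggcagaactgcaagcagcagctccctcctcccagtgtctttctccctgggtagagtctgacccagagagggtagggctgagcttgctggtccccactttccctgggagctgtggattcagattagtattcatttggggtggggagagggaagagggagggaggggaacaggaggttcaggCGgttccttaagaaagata
Saa3 chr7:53971047-53971296 (-): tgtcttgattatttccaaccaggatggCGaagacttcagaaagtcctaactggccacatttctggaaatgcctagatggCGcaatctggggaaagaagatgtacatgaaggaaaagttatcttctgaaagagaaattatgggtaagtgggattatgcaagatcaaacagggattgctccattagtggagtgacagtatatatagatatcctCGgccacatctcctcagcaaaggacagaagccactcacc
These stretches hold 8, 19, 1 and 3 CpG dinucleotides, where the median over 22362 protein-coding genes of the mm9 annotation is 8 and 92.5% of them hold at least 1. In the 1000 bases centred on the start of the longest coding transcript, *Eomes* has 49 CpG dinucleotides, *Cxcr4* 43, *Kcnj15* 7 and *Saa3* 9. Over the raised genes of each class the median was 63 where they went further and 58 where they were EZHIP only. The 4 genes thus do not stand for a difference between the classes. None of the 4 met the criteria used here for a CpG-island start, a GC content of at least 55% and an observed over expected CpG ratio of at least 0.65. *Eomes* reached the GC content but had a ratio of 0.635.

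EED-null and EZHIP cells differed at 393 of the 875 genes (44.9%), of which 220 (25.1%) were higher and 173 (19.8%) were lower in EED-null cells. The split by direction depends on the scale. As deposited, the median difference over all genes was 0.15 on the log2 scale. When the libraries were rescaled on the listed genes, it was -0.08, and 178 genes were called higher and 218 lower. Of the 482 genes that were not called, 270 had a 95% confidence interval within 2-fold, and for the other 212 the interval reached a 2-fold difference. Because whole cultures were sequenced, fewer cells of a type and less RNA per cell cannot be told apart in any of these differences. Against control, 569 genes were called in EED-null cells (65%), 349 higher (39.9%) and 220 lower (25.1%).

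Among the 495 raised genes, 91 (18.4%) went further in EED-null cells, 38 (7.68%) were partial, 85 (17.2%) were EZHIP only and 11 (2.22%) moved in the opposite direction. The other 270 were not called. Among the 380 lowered genes, 39 (10.3%) fell further in EED-null cells, 24 (6.32%) were partial, 94 (24.7%) were EZHIP only and 11 (2.89%) were opposite, with 212 not called. Thus 134 of the raised genes (27.1%) were lower in EED-null than in EZHIP cells, and 129 of the lowered genes (33.9%) were higher.

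**Figure D1:**
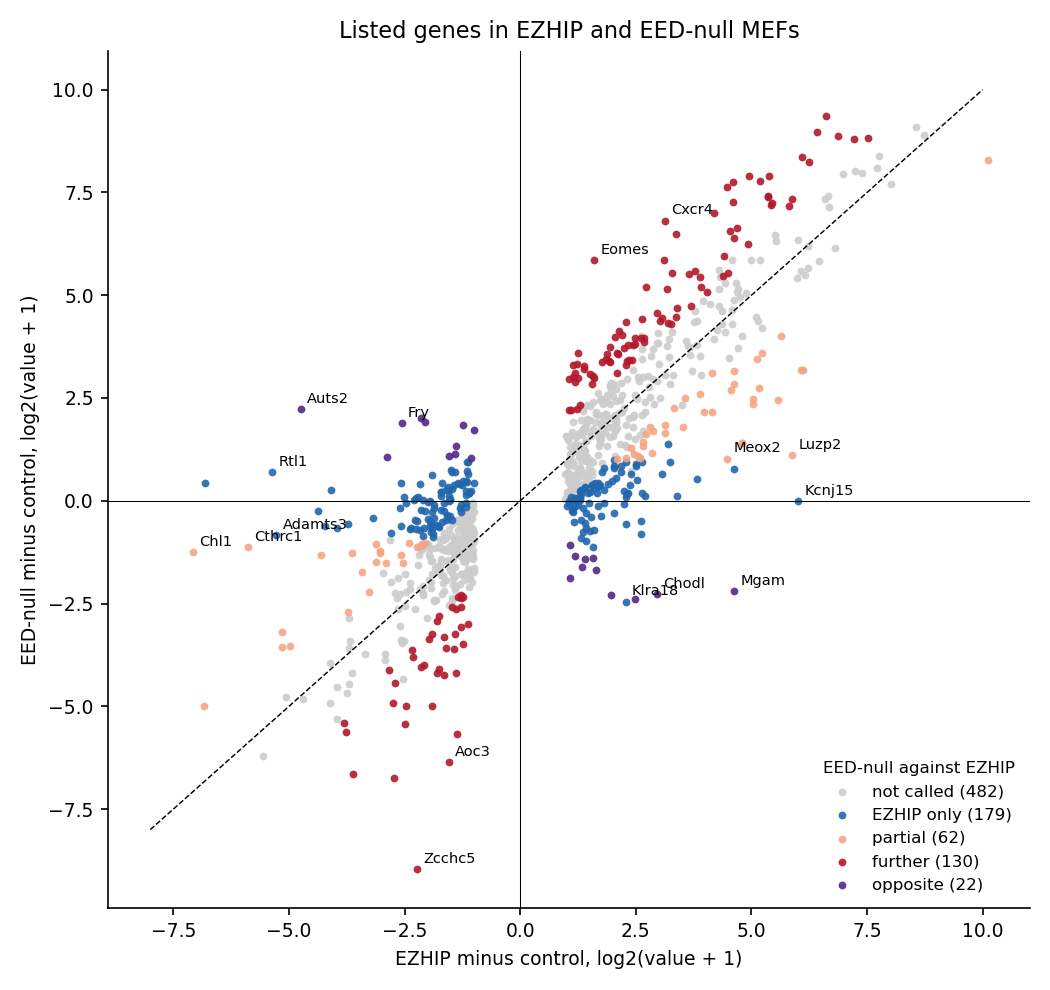
Each of the 875 listed genes is a point at its log2(value + 1) difference from control in EZHIP cells (x axis) and in EED-null cells (y axis), coloured by class, with a dashed line where both are equal and the first 2 named genes of each class labelled. The 91 raised and 39 lowered genes that went further lie beyond the dashed line, and the 22 opposite genes lie in the quadrants where the 2 differences have unlike signs.

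Genes for developmental transcription factors went further in EED-null cells. The table holds 42 raised genes of the Hox family, which set position along the body axis, and of other developmental transcription factor families, and 23 of them (54.8%) were called higher in EED-null than in EZHIP cells, beside 68 of the other 453 raised genes (15.0%) and 18.4% of all raised genes. Over the 42 genes the median log2 difference was 1.32, beside -0.18 over all raised genes. Their median log2 level was 1.02 and 0.80 in the control libraries, 5.79 and 5.80 in the EZHIP libraries, 7.58 and 7.56 in the EED-null libraries, and 5.10 and 5.15 in the K27M libraries. Near-silent genes had thus become detectable in EZHIP cells and stood higher still in EED-null cells. The shares above were not matched for the level in control. Of all raised genes silent in control (log2 of at most 3), 28.6% went further. That share includes the silent ones among these transcription factors, and the share without them was not computed. Rescaling on the listed genes left 22 of these 23 calls, and a pseudocount of 0.1 left 17.

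*Eomes* (chromosome 9, 118387330 to 118395250), a T-box factor that directs mesoderm and endoderm formation, showed the widest gap among the raised genes that went further. Its normalized expression, the deposited value used for all levels that follow, was 7.19 and 15.5 in the control libraries, 42.6 and 27.4 in the EZHIP libraries and 634 and 708 in the EED-null libraries. The EED-null libraries stood 19.2-fold above the EZHIP libraries (log2 difference 4.25, standard error 0.39, adjusted p = 0.000231 by limma), while the K27M libraries, at 53.8 and 37.6, overlapped the range of the EZHIP libraries. *Nkx2-3* (chromosome 19, 43686815 to 43690381), a homeobox gene of gut and spleen, had no read in control, 22.5 and 23.9 in EZHIP and 204 and 225 in EED-null (log2 difference 3.15, standard error 0.12, adjusted p = 3.19e-05). *Sall3*, a zinc finger factor, was likewise at 0 in both control libraries, with 23.7 and 37.6 in EZHIP and 225 and 248 in EED-null cells. It was at 0 and 0.874 in the K27M libraries, so of the 3 manipulated lines that one alone left it near 0. *Satb1*, which organizes chromatin in T cells, had 26.0 and 29.6 in EZHIP and 202 and 198 in EED-null cells. *Dach1*, a factor of eye and limb development that is in no list, had 1.03 and 2.21 in control, 17.8 and 36.5 in EZHIP and 237 and 217 in EED-null cells.

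The posterior Hox genes were part of this pattern. *Hoxd13* (chromosome 2, 74506367 to 74509656), which patterns the distal limb, was at 0 in both control libraries, at 105 and 88.9 in EZHIP and at 658 and 658 in EED-null cells, 6.78-fold higher (log2 difference 2.75, standard error 0.13, adjusted p = 4.3e-05). Its neighbour *Hoxd10* was also at 0 in control and rose from 21.3 and 25.1 in EZHIP to 152 and 155. *Hoxb13* stood at 82.8 and 101 in EZHIP and 539 and 534 in EED-null cells. In each of these 3 genes both EED-null libraries lay above both EZHIP libraries by several times the distance between replicates. *Hoxc13*, with means of 118 ± 7.24 (SD, n = 2) in EZHIP and 297 ± 10.3 (SD, n = 2) in EED-null cells, was called as well (adjusted p = 0.0239), but the call was lost when any 1 EZHIP or EED-null library was left out or with a pseudocount of 0.1. *Hoxb9*, *Hoxa11* and *Hoxa5* were not called. *Hoxc8*, a lowered gene, was higher in EED-null than in EZHIP cells at an adjusted p of 0.0475, a call that other pseudocounts, rescaling on the listed genes and a replicate block removed.

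The other transcription factors that went further belong to several lineages. Where values are set against each other from here on, those of the EZHIP libraries come first and those of the EED-null libraries second. Among those at 0 in both control libraries, *Nkx6-1*, a factor of motor neuron progenitors and beta cells, had 42.6 and 37.6 in EZHIP and 169 and 163 in EED-null cells, and *Otx2*, which specifies the forebrain, had 54.4 and 60.4 against 180.2 and 146. Neither had a read in the K27M libraries, and nor did *Foxl2*, the ovarian forkhead factor, which had 21.3 and 22.8 against 105 and 82.4. *En2*, a midbrain and hindbrain homeobox gene, had 129 and 105 against 456 and 479. *Foxa1*, a pioneer factor of endoderm, *Isl1*, a factor of motor neurons and heart progenitors, *Tbx20*, a cardiac T-box factor, and *Vax2*, an eye homeobox gene, followed with 3.41, 3.42, 4.07 and 6.13-fold higher values in EED-null cells. In each of these 8 genes the EED-null libraries did not overlap the EZHIP libraries. *Pitx1*, a hindlimb gene, rose from 117 and 107 to 695 and 636, and *Gata4*, a factor of heart and gonad, from 226 and 197 to 632 and 633. *Lhx8*, *Foxd1*, *Six3*, *Zic2* and *Wt1* completed the list with folds between 2.07 for *Wt1* and 4.84 for *Lhx8*. A pseudocount of 0.1 removed the calls of *Gata4*, *Pitx1*, *Satb1*, *Zic2* and *Wt1*, and in each of these 5 one control library had no read and the other had at most 2.

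**Figure D2:**
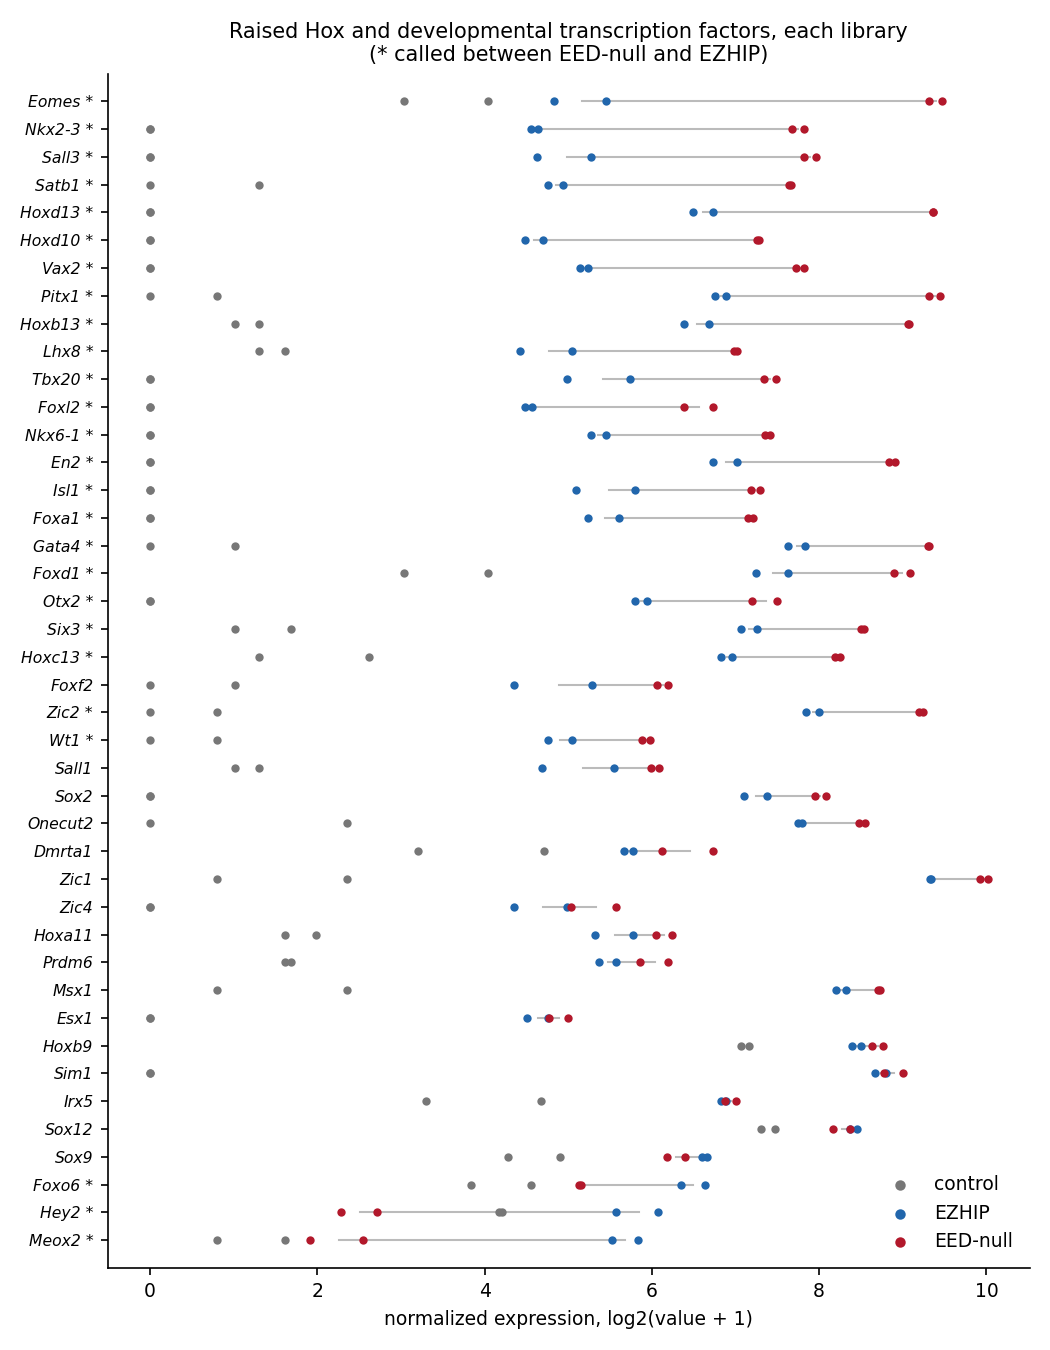
Normalized expression (x axis, log2(value + 1)) of the 42 raised Hox and developmental transcription factor genes in each control, EZHIP and EED-null library, ordered by the difference between EED-null and EZHIP, with a grey line between the 2 group means and an asterisk at called genes. In 23 genes the red EED-null points were called above the blue EZHIP points, and in *Foxo6*, *Hey2* and *Meox2* below them.

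Not every silent transcription factor gene went further. *Sox2*, a stem cell and neural progenitor factor, was at 0 in both control libraries, at 166 and 137 in EZHIP and at 245 and 270.2 in EED-null cells, 1.70-fold higher and short of the 2-fold threshold. *Zic1*, a neural factor, had 643 and 644 against 968 and 1035, and *Msx1*, a limb and craniofacial gene, had 292 and 318 against 424 and 417. The log2 differences of *Zic1* and *Msx1* had 95% intervals of -0.57 to 1.84 and -0.68 to 1.61, which reach beyond 2-fold for both. These intervals rest on the variance over all groups, control and K27M included. In both genes the EED-null libraries lay above the EZHIP libraries without overlap. In 3 genes of the list EED-null lay below EZHIP. *Meox2*, a mesoderm homeobox gene, stood at 45.0 and 55.9 in EZHIP and at 2.77 and 4.85 in EED-null cells, beside 2.05 and 0.738 in control. *Foxo6* had 80.5 and 98.0 against 34.7 and 33.9, and *Hey2*, a Notch target, had 66.3 and 46.7 against 5.55 and 3.88 with 17.5 and 17.0 in control.

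Outside the transcription factors, raised genes that went further encoded receptors, channels and ligands. *Cxcr4* (chromosome 1, 130484776 to 130488870), the receptor of the chemokine CXCL12, had 0 and 2.95 in control, 23.7 and 11.4 in EZHIP and 243 and 204 in EED-null cells (log2 difference 3.68, standard error 0.66, adjusted p = 0.00331), and was called in each alternative other than a pseudocount of 0.1. *Gjb2*, a gap junction subunit, was at 0 in control and stood at 24.9 and 18.2 in EZHIP and 191 and 204 in EED-null cells (log2 difference 3.16, standard error 0.23, adjusted p = 0.000115). *Cxcl14*, a chemokine, rose from 10.3 and 12.5 in control to 947 and 927 in EZHIP and 3715 and 3751 in EED-null cells. *Pgm5*, a phosphoglucomutase relative at cell adhesions, showed 263 and 285 against 1533 and 1539.8. In these genes the 2 groups did not overlap, and the EED-null libraries lay 3.98-fold (*Cxcl14*) to 12.7-fold (*Cxcr4*) above the EZHIP libraries.

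Of the 14 listed cytokine and chemokine genes, *Cxcl14*, *Cxcr4*, *Tnfrsf21* and the lowered *Cxcl16* were higher in EED-null than in EZHIP cells, and *Il1rl1*, *Lif*, *Ptgs2*, *Tnfrsf19* and *Tnfsf15* were lower, beside 25.1% higher and 19.8% lower of all genes. *Tnfrsf21* lost its call without any 1 EZHIP or EED-null library. Of the 40 listed genes for ion channels, receptors and transporters, a list that holds *Htra1*, a protease, by its prefix alone, 7 (17.5%) were higher and 9 (22.5%) lower, near those shares of all genes. The higher ones included *Cacna1h*, a T-type calcium channel subunit, at 122 and 114 in EZHIP and 349 and 312 in EED-null cells, and *Abca1*, a cholesterol exporter, at 166 and 159.6 against 531 and 478.

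The shares of the classes differed with the level in control cells. Of the 147 raised genes that were silent in control (log2 of at most 3), 42 (28.6%) went further in EED-null cells and 8 (5.44%) were EZHIP only. Of the 133 genes with a low level (log2 up to 5.5), 33 (24.8%) went further and 28 (21.1%) were EZHIP only. Of the 215 genes expressed above that level, 16 (7.44%) went further and 49 (22.8%) were EZHIP only. The partial class was most frequent among the silent genes, with 23 (15.6%), beside 8 (6.02%) of the low and 7 (3.26%) of the expressed genes. These shares are descriptions without a test, and the log2 scale with a pseudocount compresses differences at the low end. The class rule bears on them too. For a gene without reads in control, a few EED-null reads can make it partial in place of EZHIP only, and it cannot fall below control.

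A start in a CpG island was found for 60% of the 90 raised genes that went further and have a sequence, 49.4% of the EZHIP only genes, 38.9% of the partial genes and 65.3% of the genes that were not called. It was found for 69.0% of the 42 raised transcription factors, 45.8% of all listed genes and 35.8% of 22364 protein-coding genes. Among the lowered genes, 15.4% of those that fell further had one, beside 28.6% of the EZHIP only genes. These shares were not tested against each other.

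In the 91 raised genes that went further, the median log2 difference between EED-null and EZHIP was 1.62. Their median difference from control was 4.37 in EED-null, 2.73 in EZHIP and 3.17 in K27M cells. K27M cells, the other inhibited line, were called above control in 74 of the 91, beside 62.4% of all raised genes. In 33 of the 91 no control library held more than 3 reads, so that differences from control depend there on the pseudocount. The size of the difference between EED-null and EZHIP does not rest on the control libraries. Its p-value, interval and call do in part, because the variance is estimated over all groups.

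Partial genes had been raised in both lines and less so without EED. *Mmp13*, a collagenase, was at 0 in control, at 1056 and 1160.5 in EZHIP and at 316 and 310.1 in EED-null cells (log2 difference -1.82, standard error 0.11, adjusted p = 6.1e-05). *Srd5a2*, a steroid 5-alpha reductase, had 45.0 and 49.0 in EZHIP and 4.16 and 4.85 in EED-null cells against 0 in control. *Slpi*, a protease inhibitor, had 65.1 and 68.4 against 11.1 and 5.81. *Il1rl1*, the receptor of interleukin 33, rose from 30.8 and 9.60 in control to 604 and 595 in EZHIP and 112 and 90.1 in EED-null cells. Each of these 4 genes had EED-null values between those of control and EZHIP, with no overlap.

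For 3 of the 38 partial genes, *Luzp2*, *Gfra2* and *Ano5*, no EED-null library held more than 3 reads. *Luzp2* (chromosome 7, 62091329 to 62520736) stood at 55.6 and 60.4 in the EZHIP libraries, which is a ratio and 95% counting interval of 49.3, 13.7 to 426 over EED-null cells, whose values of 1.39 and 0.969 are 1 read each. *Gfra2*, a co-receptor for neurturin, had 26.0 and 27.4 in EZHIP against 1.39 and 1.94 in EED-null cells, and *Ano5*, a membrane protein of the anoctamin family, had 24.9 and 28.5 against 1.39 and 1.94. All 3 were at 0 in control, so their call against control rests on 1 or 2 reads per EED-null library. In substance they were detected well in EZHIP cells and at the limit of detection in EED-null cells.

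Raised genes of the EZHIP only class numbered 85. Their median log2 difference between EED-null and control was 0.16, and between EZHIP and control 1.68. For 56 of the 85, the 95% interval of EED-null against control lay within 2-fold, which bounds the change in EED-null cells. The other 29 leave room for a larger one. K27M cells were called above control in 34 of the 85, below in 7 and neither in 44, beside 62.4% above and 4.85% below over all raised genes.

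*Kcnj15* (chromosome 16, 95479165 to 95521867), a potassium channel, had 60.4 and 67.3 in the EZHIP libraries and no read in either EED-null or either control library. Against 3 reads in each EED-null library, the limit that a count of 0 allows, it was at least 18.1-fold higher in EZHIP cells. *Anxa8*, an annexin of epithelia, had 25.7 and 22.1 in control and 265 and 255 in EZHIP cells, beside 31.9 and 21.3 in EED-null and 227 and 237 in K27M cells (log2 difference -3.27, standard error 0.20, adjusted p = 6.11e-05). It was thus raised in both transgene lines, EZHIP and K27M, and was not called against control without EED. *Pde1a*, a phosphodiesterase, had 28.4 and 22.8 in EZHIP, 2.77 and 0.969 in EED-null and 1.03 and 0.738 in control cells. *Slc13a5*, a citrate transporter, had 62.7 and 42.2 in EZHIP and 4.16 and 16.5 in EED-null cells, and its call was lost without EZHIP replicate 1. *Saa3*, an acute-phase protein, had 18.9 and 29.6 in EZHIP and 0 and 1.94 in EED-null cells, and *Klra18*, a natural killer receptor gene, had 43.4 and 55.6 against 0 and 2.54. Both have close paralogs between which reads can be split, and the call of *Klra18* was lost with a pseudocount of 0.1. *Klra18* had 11.3 and 7.65 in control, above both EED-null libraries, so its EED-null values did not return to the control level.

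Developmental signalling genes showed a mixed pattern. Of the 32 raised genes of this list, 14 (43.8%) were lower in EED-null than in EZHIP cells, 4 of them partial and 10 EZHIP only, beside 27.1% of all raised genes, and 4 (12.5%) went further. Their median log2 difference was -0.59, beside -0.18 for all raised genes, and rescaling left 14 lower. Among the ligands, *Wnt4* fell from 85.2 and 78.7 in EZHIP to 6.93 and 10.7 in EED-null cells (log2 difference -3.11, standard error 0.42, adjusted p = 0.000968), which lay with the control libraries at 17.5 and 8.86. The growth factor gene *Igf2* had 8919 and 8644 in EZHIP and 2649.6 and 2438 in EED-null cells, beside 3589.8 and 3454 in control, and *Inhba*, an activin subunit, had 301 and 276 against 121 and 111. *Bmper*, a modulator of bone morphogenetic proteins, stood at 186 and 152 against 40.2 and 35.9. In each of these genes both EED-null libraries lay below both EZHIP libraries and were not called against control.

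Receptors and targets of the same pathways followed. *Kdr*, a receptor for vascular endothelial growth factor, had 52.1 and 51.3 in EZHIP and 11.1 and 10.7 in EED-null cells, with 9.24 and 9.60 in control. *Fzd1*, a Wnt receptor, was partial, with 776 and 749.9 in control, 6694 and 6685 in EZHIP and 2678 and 2818 in EED-null cells. *Axin2*, a target of Wnt signalling, was partial too, at 623 and 539 against 287 and 268, and lost its call without EZHIP replicate 1. Of the hedgehog targets, *Gli1* had 137 and 119 against 51.3 and 50.4 and *Ptch1* had 840.3 and 722 against 378 and 318, both EZHIP only. In retinoic acid metabolism, *Cyp26b1*, which degrades it, and *Aldh1a1*, which makes it, were EZHIP only, with log2 differences of -2.32 and -2.29, although *Aldh1a1* lost its call without EZHIP replicate 2. The binding protein gene *Crabp1* was partial, at 2344 and 2217 against 973 and 954. The 4 signalling genes that went further were *Flt4*, *Jag2*, *Lef1* and *Pdgfc*, of which *Lef1*, a nuclear partner of beta-catenin, rose from 74.6 and 59.1 to 218 and 176. *Pdgfc* and *Jag2* lost their calls when 1 library was left out.

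Of the 5 listed cell cycle genes, all raised, *Ccnd1*, *Cdk6* and *Cdkn1a* were lower in EED-null than in EZHIP cells and of the EZHIP only class, which holds 17.2% of all raised genes. *Cdk6* lies in the stretch of chromosome 5 described later, where most genes are of this class. *Ccnd1*, cyclin D1, had 426 and 447 in control, 1797 and 1661 in EZHIP and 557 and 657 in EED-null cells (log2 difference -1.51, standard error 0.14, adjusted p = 0.000231). *Cdk6*, its kinase partner, had 154 and 188 in control, 1034 and 942 in EZHIP and 244 and 236 in EED-null cells. *Cdkn1a*, an inhibitor of cyclin-dependent kinases, had 336 and 337 in control, 847 and 823 in EZHIP and 195 and 167 in EED-null cells, so that an activator pair and an inhibitor of the cycle were raised together. Among the 16 raised genes of matrix, integrins and proteases, 7 (43.8%) were lower in EED-null cells, *Timp3*, *Itga6*, *Mmp13* and *Smoc2* among them, and *Npnt* alone went further, beside 27.1% and 18.4% of all raised genes. Of 4 listed muscle genes, *Ankrd1* and *Smtnl2* were lower in EED-null cells and none was higher, where 19.8% of all genes were lower. *Timp3*, an inhibitor of metalloproteinases, had 1866 and 1881 in control, 7071 and 6932 in EZHIP and 2556 and 2384 in EED-null cells. *Itga6* and *Adamts17*, which lay near the 2-fold threshold, lost their calls in 2 or more alternatives.

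**Figure D3:**
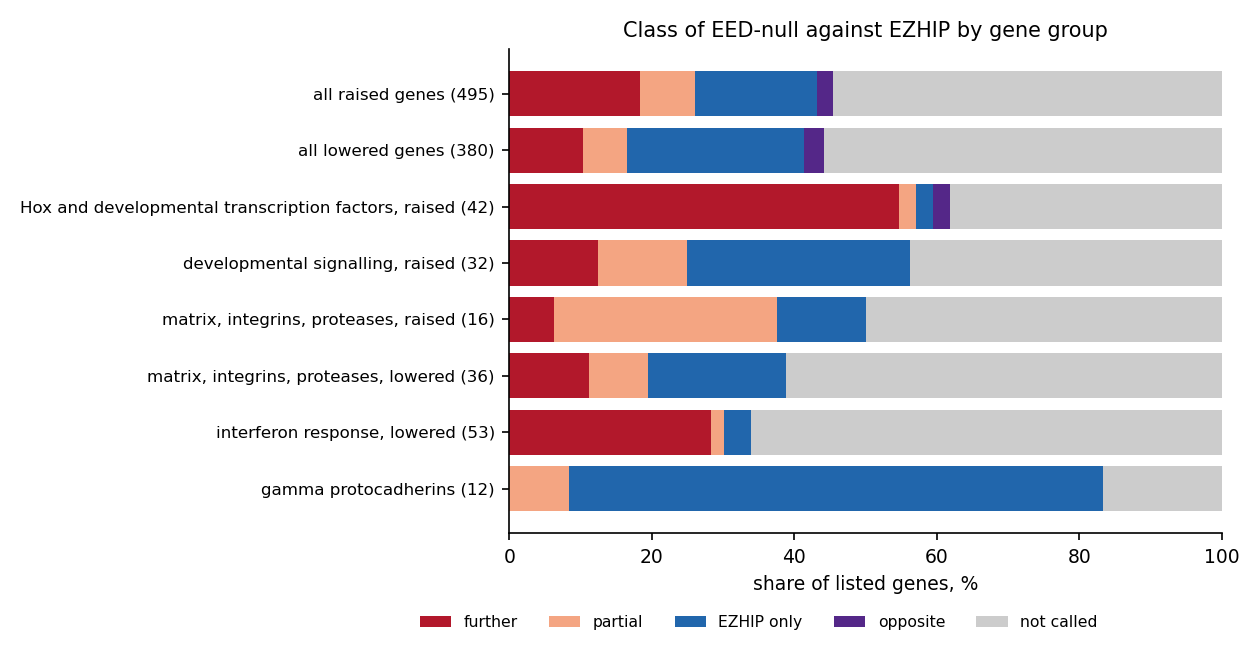
Share of listed genes (x axis, %) in each class for the raised genes, the lowered genes and 6 gene groups, with the number of genes in parentheses. Raised Hox and developmental transcription factors had 54.8% in the further class, while the gamma protocadherins, a group chosen after its values were seen, had 10 of 12 genes nearer to control in EED-null than in EZHIP cells.

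A stretch of chromosome 5, chosen after its values were seen, held a cluster of EZHIP only genes. Between positions 3343893 and 9161776 of mm9, from *Cdk6* to *Dmtf1*, lie 20 successive listed genes, and all 20 were raised in EZHIP cells. In the annotation the stretch of 5817884 bases holds 38 protein-coding genes. EED-null cells were called lower than EZHIP cells in 17 of the 20: 15 were EZHIP only, *Fzd1* was partial and *Abcb1b*, a drug efflux pump, was opposite. *Fam133b*, *Crot* and *Dmtf1* were not called. EZHIP only genes were 75% of the raised genes inside the stretch and 14.7% (70 of 475) outside it.

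All 20 genes were higher in both EZHIP libraries than in the mean of control, by unequal amounts. The median log2 difference from control over the 20 genes was 1.46 in EZHIP cells, with a range of 1.02 to 3.13, and the medians of the 2 EZHIP libraries were 1.42 and 1.55. It was 0.22 in EED-null cells and 0.18 in K27M cells. K27M cells were called above control at *Steap1* and below it at *Cyp51*, and at no other gene of the stretch. Over the other 47 listed genes of chromosome 5 the median difference between EED-null and EZHIP cells was -0.13, beside -1.32 within the stretch. No other window of this length in the genome held more than 11 listed genes, the number reached on chromosome 17. The genes of the stretch differ in function: *Krit1* acts in endothelial junctions, *Akap9* at the centrosome, *Cyp51* in sterol synthesis and *Dbf4* in DNA replication. More copies of the stretch in the DNA of the EZHIP line and more RNA per copy cannot be told apart from these data. By chromosome, the median difference between EED-null and EZHIP cells ran from -0.79 on chromosome 5 to 0.81 on the X chromosome. Of the 26 listed genes of the X chromosome, 11 were higher and 1 was lower in EED-null cells. Over all genes 25.1% were higher and 19.8% lower, and over all lowered genes 33.9% and 10.3%. The median difference of these 26 genes between EZHIP and control was -1.13, so lowered genes weigh in this count. Without the genes of the stretch, 70 raised genes were EZHIP only, 91 went further, 37 were partial and 10 were opposite.

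**Figure D4:**
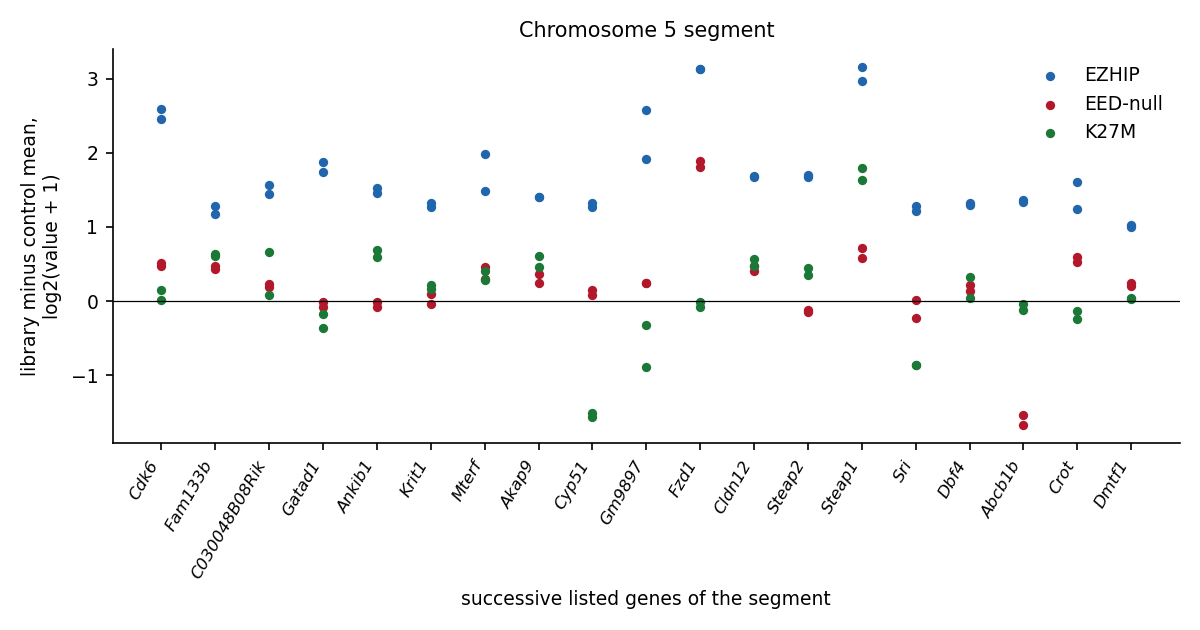
For the successive listed genes of the chromosome 5 stretch but 1 (x axis, in genome order), the log2(value + 1) difference of each EZHIP, EED-null and K27M library from the mean of the control libraries is shown (y axis). Both EZHIP libraries lie above 0 at each gene shown, while the medians of the EED-null and K27M libraries over the 20 genes lie between 0.12 and 0.23.

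Opposite genes among the raised ones numbered 11, above control in EZHIP cells and below it in EED-null cells. *Chodl* (chromosome 16, 78931193 to 78951978), a lectin-like membrane protein, had 148 and 168 in control, 1148 and 1314 in EZHIP and 33.3 and 30.0 in EED-null cells (log2 difference -5.24, standard error 0.55, adjusted p = 0.000394), and K27M cells were lower still at 0 and 2.62. *Cdsn*, corneodesmosin of the skin, had 60.6 and 42.8 in control, 309 and 270.2 in EZHIP and 8.32 and 9.69 in EED-null cells. *Mgam*, an intestinal glucosidase, had 2.05 and 5.90 in control, 108 and 117 in EZHIP and no read in either EED-null library, so that EZHIP cells stood at least 31.9-fold above EED-null cells. The 3 groups did not overlap in any of them. *Trib3*, a pseudokinase, and *Chac1*, a glutathione-degrading enzyme, are both targets of the integrated stress response, and *Trib3* stood at 232 and 227 in control, 715 and 656 in EZHIP and 84.6 and 88.2 in EED-null cells and *Chac1* at 165 and 180.1 in control, 495 and 425 in EZHIP and 77.6 and 52.3 in EED-null cells. *Hey2*, *Abcb1b*, *Fndc1*, *Fam5c*, *Pde8b* and the glycine transporter gene *Slc6a9* completed the class.

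Among the lowered genes, interferon-response genes were the list with the most members that fell further without EED. These genes are switched on by interferon and encode antiviral proteins. The table holds 54 of them, of which 53 were lowered, and 15 of the 53 (28.3%) fell further in EED-null cells, beside 10.3% of all lowered genes. In the other direction *H2-Q6*, *H2-Q7* and *H2-Q8*, class I histocompatibility genes, were higher, and 35 were not called. The median log2 difference over the 53 genes was -0.57, beside 0.46 over all lowered genes. Median log2 levels over these genes reached 8.53 and 8.46 in the control libraries, 6.90 and 6.82 with EZHIP, 6.40 and 6.57 without EED, and 9.63 and 9.73 with K27M. EZHIP cells lay below control by the choice of these genes. EED-null cells lay below control too, and lower than EZHIP cells by the median, while K27M cells lay above control. Rescaling on the listed genes gave 20 genes that fell further.

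*Oas2* (chromosome 5, 121180342 to 121199862), a sensor that makes an RNase L activator, had 210.4 and 229 in control and 39.1 and 37.6 in EZHIP cells, beside 2.77 and 5.81 in EED-null and 1411 and 1606 in K27M cells (log2 difference -2.96, standard error 0.27, adjusted p = 0.000235). *Trim30a*, an antiviral ubiquitin ligase, had 416 and 417 in control and 80.3 and 69.1 in EZHIP cells, beside 12.5 and 11.6 in EED-null and 825 and 853 in K27M cells. *Sp100*, a nuclear body component, had 24.3 and 28.5 in EZHIP and 2.77 and 1.94 in EED-null cells, and its neighbour *Sp140* had 21.8 and 10.6 and no read in either EED-null library. For *Sp100* the ratio of EZHIP to EED-null and its 95% counting interval were 11.2, 4.28 to 44.8. *Ifi27l2a* stood at 198 and 259 against 31.9 and 31.0, and *Ifi44* at 81.7 and 87.8 against 8.32 and 20.3. In all 6 genes the EED-null libraries lay below both EZHIP libraries. *Mx1*, *Mx2*, *Oasl1*, *Gbp9*, *Samd9l*, *Ifi203* and *Rtp4* were called in the same direction. The calls of *Irf7*, *Ddx60*, *Rtp4* and *Oas1a* were each lost when 1 library was left out. Reads can be split between near-identical members of the Oas, Ifi and H2-Q families.

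The 35 genes of this group that were not called include regulators of the response. *Stat2*, a transducer of the interferon receptor, had 1355 and 1346 in control, 586 and 519 in EZHIP and 416 and 368 in EED-null cells, and *Usp18*, a brake on the receptor, had 320.3 and 299 in control, 118 and 107 in EZHIP and 83.2 and 81.4 in EED-null cells. Both EED-null libraries lay below both EZHIP libraries in each, by less than 2-fold. *Ifit3*, an antiviral RNA-binding protein, had 174 and 194 in EZHIP and 246 and 211 in EED-null cells, a log2 difference of 0.31 with a 95% interval of 0.01 to 0.61.

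The gap at *Zcchc5* (chromosome X, 104032421 to 104035983), a gene derived from a retrotransposon, was the widest among the lowered genes that fell further. It had 976 and 951 in control, 204 and 204 in EZHIP and 2.77 and 0 in EED-null cells, and the ratio of EZHIP to EED-null with its 95% counting interval was 147, 49.1 to 1481. *Aoc3*, an amine oxidase of vessel and fat cells, had 195 and 198 in control, 76.9 and 58.1 in EZHIP and 0 and 4.85 in EED-null cells. *Jag1*, a Notch ligand, had 1498 and 1428 in control, 429.6 and 407 in EZHIP and 94.3 and 66.9 in EED-null cells, and *Rspo2*, an enhancer of Wnt signalling, had 1629 and 1718 in control, 116 and 128 in EZHIP and 29.1 and 37.8 in EED-null cells. *Epha7*, an ephrin receptor, had 609 and 649 in control, 283 and 249.6 in EZHIP and 61.0 and 50.4 in EED-null cells. For all 5 genes both lines lay below control and EED-null lay below EZHIP.

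Of the 36 lowered genes of matrix, integrins and proteases, 4 (11.1%) fell further, 10 (27.8%) were higher in EED-null than in EZHIP cells and 22 were not called. Over all lowered genes 10.3% fell further and 33.9% were higher, so the list was near the background. The small proteoglycan genes *Prelp*, *Aspn* and *Dcn* were among those that fell further. *Prelp* had 857 and 836 in control, 348 and 312 in EZHIP and 12.5 and 19.4 in EED-null cells (log2 difference -4.32, standard error 0.26, adjusted p = 6.19e-05), and *Aspn* had 1631 and 1701 in control, 468 and 524 in EZHIP and 101 and 92.1 in EED-null cells. *Dcn*, a fibroblast marker, had 364 and 380.1 in control, 129 and 179 in EZHIP and 69.3 and 73.6 in EED-null cells, and its call was lost without EZHIP replicate 2. *Dcn* stood at 3192 and 3255 in K27M cells, far above control. Among the 10 that were higher in EED-null cells, *Cthrc1*, a collagen-binding protein of repair, had 280.2 and 235 in control, 2.37 and 4.56 in EZHIP and 104 and 132 in EED-null cells, and *Mfap4*, an elastic fibre protein of the EZHIP only class, had 166 and 180.1 in control, 74.6 and 82.1 in EZHIP and 359 and 309 in EED-null cells.

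EZHIP only genes were the most numerous class among the called lowered genes, with 94. Their median log2 difference from control was -0.06 in EED-null and -1.77 in EZHIP cells, and for 54 of them the 95% interval of EED-null against control lay within 2-fold. K27M cells were called below control in 29 of the 94, above it in 15 and neither in 50, while over all lowered genes 39.7% were below and 13.9% above. *Rtl1* (chromosome 12, 110827404 to 110838540), an imprinted gene of placenta and muscle, had 83.2 and 90.1 in control, 3.55 and 0 in EZHIP and 165 and 119 in EED-null cells, and the ratio of EED-null to EZHIP with its 95% counting interval was 80.0, 26.8 to 387. *Adamts3*, a procollagen protease, had 57.5 and 53.9 in control, 0 and 1.14 in EZHIP and 37.4 and 25.2 in EED-null cells. *Stmn2*, a microtubule regulator of neurons, had 44.1 and 45.0 in control, 2.37 and 1.14 in EZHIP and 73.5 and 39.7 in EED-null cells. *Ednra*, the endothelin A receptor, had 99.6 and 106 in control, 3.55 and 5.70 in EZHIP and 88.7 and 50.4 in EED-null cells. In each of these 4 genes EZHIP cells were at or near the limit of detection, while EED-null cells were not called against control.

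Further genes of this class were *Adamts20*, a protease of pigment cell migration, with 167 and 162 in control, 11.8 and 11.4 in EZHIP and 116 and 107 in EED-null cells (log2 difference 3.16, standard error 0.14, adjusted p = 4.3e-05), *Fut4*, a fucosyltransferase, and *Foxp2*, a forkhead factor of brain and lung, with 80.1 and 96.0 in control, 95.7 and 90.1 in EED-null and a mean of 14.5 ± 2.08 (SD, n = 2) in EZHIP cells. *Wnt5a*, a noncanonical Wnt ligand, had 239 and 278 in control, 54.4 and 67.3 in EZHIP and 179 and 148 in EED-null cells. *Tex15*, the single germline gene of the table, had 181 and 171 in control, 32.0 and 34.2 in EZHIP and 109.5 and 108 in EED-null cells.

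Of the 37 listed genes of axon guidance and neural adhesion, 14 (37.8%) were higher and *Epha7* alone was lower in EED-null than in EZHIP cells, beside 25.1% and 19.8% of all genes. The count rests on the gamma protocadherins described next: without them, 4 of 25 (16%) were higher. *Robo2*, a receptor for Slit proteins, had 212 and 209 in control, 80.6 and 111 in EZHIP and 362 and 336 in EED-null cells. *Chl1* (chromosome 6, 103460870 to 103699671), an adhesion molecule of the L1 family, was partial: it had 276 and 308 in control, 1.18 and 1.14 in EZHIP, about 1 read per library, and 126 and 119 in EED-null cells, a ratio with its 95% counting interval of 106, 28.7 to 873. The raised genes *L1cam* and *Sema5b* went further, *L1cam* from 221 and 197 to 621 and 523.

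The gamma protocadherins, adhesion molecules of 1 gene cluster whose isoforms share their last exons, made up much of this group. They were singled out after their values were seen. The table holds 12 of them, all lowered, and 10 were higher in EED-null than in EZHIP cells, 9 as EZHIP only and *Pcdhgb5* as partial. The median log2 difference was 1.29, beside 0.46 over all lowered genes. *Pcdhga2* had 161 and 163 in control and 53.4 and 56.6 in EZHIP cells, beside 161 and 193 in EED-null and 39.3 and 38.5 in K27M cells (log2 difference 1.66, standard error 0.12, adjusted p = 0.000115), and *Pcdhga3* had 136 and 138 in control and 39.3 and 35.1 in EZHIP cells, beside 106 and 99.3 in EED-null and 38.5 and 49.6 in K27M cells. The 9 EZHIP only genes were not called against control in EED-null cells, while *Pcdhgb5* was below it, and over the 12 genes the median log2 difference from control was -0.54 in EED-null and -1.89 in EZHIP cells. Reads of the shared exons can be divided among the isoforms in more than 1 way, so the 12 are not independent measurements. Rescaling on the listed genes left 7 calls, and leaving out 1 EZHIP or EED-null library left between 8 and 10.

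Imprinted genes moved in both directions. Of 11 listed, *Rtl1*, *Dlk1*, *Mest*, *Sfmbt2* and *Zdbf2* were higher in EED-null than in EZHIP cells, and *Ano1*, *Igf2* and *Dcn* were lower, where 25.1% of all genes were higher and 19.8% lower. *Dlk1*, which lies near *Rtl1* on chromosome 12 and restrains fat cell formation, had 1434 and 1284 in control and 61.5 and 74.1 in EZHIP cells, beside 532 and 546 in EED-null and 771 and 929 in K27M cells (log2 difference 2.98, standard error 0.15, adjusted p = 4.45e-05). *Mest*, a paternally expressed hydrolase, had 2413 and 2349 in control and 746 and 710.2 in EZHIP cells, beside 2679.7 and 2519 in EED-null and 1213 and 1313 in K27M cells. Both were lowest in EZHIP cells. *Sfmbt2*, itself a Polycomb group protein, was raised and went further, from 75.7 and 105 to 313 and 309, and *Zdbf2*, raised too, from 1687 and 1662 to 3444 and 3419, a call that rescaling removed.

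The widest difference of the opposite class, and of all listed genes but the predicted gene *Gm14430*, was at *Auts2* (chromosome 5, 131913205 to 133019214), a neurodevelopmental gene whose protein is part of a PRC1 complex. It had 124 and 144 in control and 3.55 and 4.56 in EZHIP cells, beside 649 and 617 in EED-null and 448 and 535 in K27M cells, so that EED-null stood 156-fold above EZHIP (log2 difference 6.98, standard error 0.16, adjusted p = 6.46e-06). *Fry*, a cytoskeletal scaffold, had 37.0 and 16.2 in control and 4.73 and 2.28 in EZHIP cells, beside 104 and 85.3 in EED-null and 307 and 379 in K27M cells. *Cpxm1*, a secreted carboxypeptidase-like protein, had 118 and 132 in control, 53.3 and 51.3 in EZHIP and 437 and 463 in EED-null cells. In these 3 genes control lay between the 2 lines, with no overlap. *Daam2*, a formin of Wnt signalling, had 41.4 and 53.6 in EZHIP and 313 and 319.6 in EED-null cells, and *Dkk3*, a member of the Dickkopf family, had 56.8 and 62.7 against 384 and 359. *St6galnac3*, *Fam174b*, *Rab15*, *Gm347*, *Sort1* and *Spint1* completed the 11 genes.

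**Figure D5:**
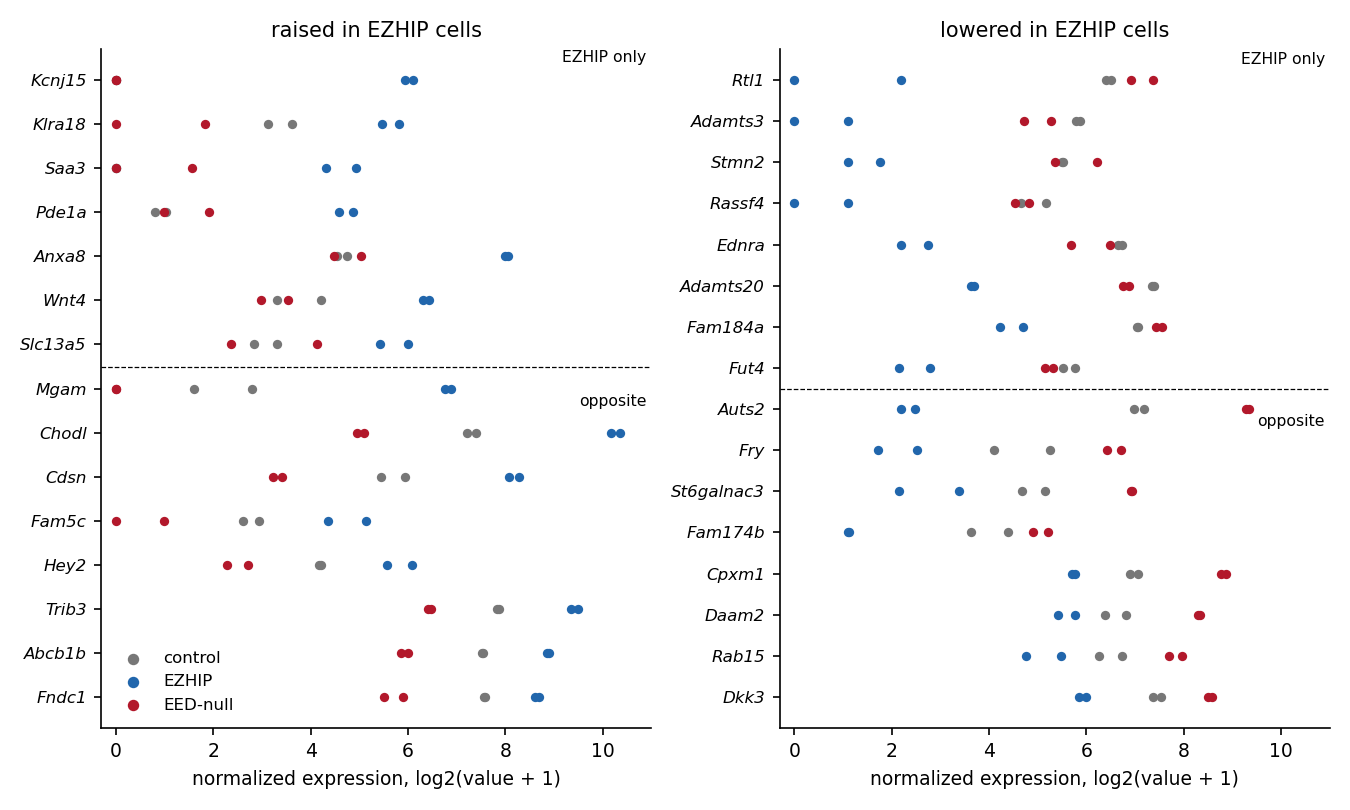
Normalized expression (x axis, log2(value + 1)) in each control, EZHIP and EED-null library for the named genes of the EZHIP only class (above the dashed line) and of the opposite class (below it), raised genes, but for 1 that is not shown, on the left and lowered genes on the right. In the EZHIP only class EED-null was not called against control. Its points can still lie off the control points, below them for *Klra18* and *Adamts3* and above them for *Rtl1*. In the opposite class the EED-null points lie beyond the control points, as for *Chodl* and *Auts2*.

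Genes of Polycomb complexes and markers of other cell types were few in the table. Of the Polycomb subunits and H3K27 demethylases, *Pcgf5*, *Phf19* and *Scml2* are listed, and none of these 3 was called between EED-null and EZHIP cells, with log2 differences from -0.75 to 0.87. Over all genes 44.9% were called, and 3 genes are too few to set against that share. *Auts2* and *Sfmbt2*, Polycomb-associated genes outside this list, were called, as given above. The endothelial marker *Kdr* and the epithelial marker *Krt14* were lower in EED-null cells, *Krt14* at 37.9 and 26.2 in EZHIP and 4.16 and 4.05 in EED-null cells. *Epcam*, the other epithelial marker, was not called. Of the neural markers, *Mbp* and *Stmn2* were higher in EED-null cells and *Sox2* was not called, and *Mbp* lost its call when EZHIP replicate 1 or either EED-null library was left out. Over all genes 25.1% were higher and 19.8% lower in EED-null cells, and the markers are too few to set against these shares. No macrophage marker is listed. The part of other cell types in the results was not tested.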

How the data were processed

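The deposited values are a signal per gene and library that the authors made with RSEM 1.2.4 against a transcriptome of mm9 (per the labels): estimated reads divided by 1 size factor for each library. They tested with EBSeq and kept genes with at least a 2-fold difference. RNA of another cell type had been added to each sample, and whether it entered the size factors is not given in the sources used here. No column was left out.

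The size factors could be recovered from the smallest steps between values, and between 71.8% and 82.3% of the values above 0 then gave whole reads, so no count model was fitted. The test was limma (version 3.58.1, R version 4.3.3), fitted to all 8 libraries with 1 mean for each group. Intervals and limits from counts cover counting error only. Groups whose libraries held no more than 3 reads were taken to be at the limit of detection. Positions, strands and promoter sequences came from GENCODE vM1 on NCBIM37 (mm9), in which 850 names had 1 locus, 19 none and 6 several. Lists were counted with pandas 2.3.3 and figures drawn with matplotlib 3.10.9. The test was checked on simulated data.

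The libraries compared, the gene lists and the rule for named genes were chosen with earlier results of these data known. Named genes are, in each class, the 8 (5 in the partial classes) with the largest difference among those with a mean of at least 20 in either line, outside predicted genes, and called members of 18 gene lists, 17 of which have a listed gene. Genes named outside this rule (*Pgm5*, *Slpi*, *Chac1*, *Sp140*, genes that were not called, those of the chromosome 5 stretch and the gamma protocadherins) were chosen after their values were seen. The alternatives changed the pseudocount (0.1 or 5), dropped genes whose mean was under 5, or used rescaling on the listed genes, each control, EZHIP or EED-null library left out, no K27M libraries, a replicate block, limma with a trend and the adjusted p alone. Chosen after seeing the data were a stricter EZHIP only class and the counts without the chromosome 5 stretch. The values of 2 genes are not reported here, although counts and medians include them. ChIP-seq and tumour data were not analysed here.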

Additional observations from a re-analysis of the deposited data

Results flagged for a closer look

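EED-null and EZHIP cells, 2 lines in which PRC2 was disabled in different ways, differed at 393 of the 875 listed genes by the direct test of the difference. At 22 of these, the lines moved to opposite sides of control: 11 genes raised in EZHIP cells, such as *Chodl* and *Trib3*, were below control in EED-null cells, and 11 lowered genes, such as *Auts2* and *Fry*, were above it.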

How the results depend on the processing

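Across the alternatives that keep the 2-fold threshold, between 363 and 396 genes were called, and 345 to 393 of the 393 genes called in the report were called again. Of the named genes, 1 lost its call under a replicate block and 17 did without EZHIP replicate 1, the fewest and the most under any of these alternatives that changed 1. The partial classes were the least stable, with 24 raised and 11 lowered genes at a pseudocount of 5. Rescaling on the listed genes gave 18 raised and 6 lowered opposite genes. With the adjusted p alone, 601 genes were called, 275 of them lower, and there were 117 raised partial, 18 raised opposite, 74 lowered further, 97 lowered partial and 22 lowered opposite genes. EZHIP only genes whose EED-null interval lay within 2-fold of control numbered 56 raised and 54 lowered. For these the construction itself admits fewer genes, and otherwise the cause was not tested. With each control, EZHIP or EED-null library left out in turn, 363 to 394 genes were called. The other class counts moved by less than 1.5 times, while with the adjusted p alone 30 interferon-response genes fell further. A replicate block gave 389 calls, all among the 393. The replicate numbers are shared only as numbers: the differences between replicates of EZHIP and EED-null correlated at 0.105 across 875 genes and at 0.165 across the 824 with a mean of at least 20, and with 2 pairs and no shared source in the labels the samples were not treated as paired. Depth, at 209390 to 424561 reads on the listed genes, limits what can be said of genes with few reads.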
